A study of Homo sapiens with 4 samples.

Results

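The polo-like kinases PLK1, PLK2, PLK3 and PLK4 were examined in Reh-6-MPR cells, a derivative of the human B cell precursor leukemia line Reh that had been made resistant to the thiopurine drug 6-mercaptopurine (6-MP) by exposure to rising drug concentrations. The 4 kinases were chosen by gene name from the 29833 genes measured, with their values in these same libraries already known, so their levels are given as a description without a test. Wild-type resistant cells of this line were treated for 48 h in 4 ways, namely with the vehicle PBS, with histidine at 4 mM, with 6-MP at 1.0 μg/mL, or with both agents at those concentrations. Histidine is an amino acid whose breakdown consumes tetrahydrofolate, and 6-MP is a purine analog used in leukemia maintenance therapy. Poly(A) RNA of each treatment was sequenced as 1 library, so there was no replicate check, no p-value can be given, and every difference below is a difference between libraries. The untreated parental Reh line was not analysed here. The study set up the comparison to find genes involved in the response of resistant cells to the 2 agents.

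Polo-like kinases are serine/threonine kinases that share a C-terminal polo-box region, by which they dock on substrates or fold onto partner proteins. PLK1 is the mitotic member. It is activated by Aurora A with its cofactor BORA, promotes entry into mitosis, and acts at centrosomes, kinetochores and the cytokinesis machinery. Its mRNA is cell-cycle regulated and is highest around G2 and mitosis. PLK4 is the most divergent member and starts centriole duplication together with STIL and SASS6. PLK2 and PLK3 were described as early-response genes that are induced by serum and by stress.

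Levels are given as FPKM, fragments normalised to gene length and to the reads of the library. Comparisons between genes rest on the length used, which was 4760 bases for PLK1, 4647 for PLK2, 3327 for PLK3 and 4479 for PLK4. The read numbers behind the FPKM values were recovered from the steps between low values, and the library totals ranged from 12899122 reads for the combined treatment to 15486376 reads for histidine. Intervals are exact 95% Clopper-Pearson intervals on those reads, except those of the departure from additivity. They cover counting error only, since PCR reads without molecular identifiers are not independent molecules. A difference is that of log2(FPKM + 1), a scale that makes changes of low genes look smaller, and genes are called higher or lower when it is at least 1 in size. Shares of genes past this threshold refer to the 12750 genes with a mean of at least 1 FPKM, which all 4 kinases passed. The combined library stood apart from the others in composition. Its median gene lay 0.13 above vehicle on the log2 scale, its median-ratio scaling factor exceeded that of vehicle by 0.16 on the log2 scale, and it had 25443 genes above 0 against 23635 to 23978. Of 9 B-lineage markers 8 were in the table, and all 8 were above 1 FPKM in every library, with a summed level of 1387 to 1604 FPKM. Some markers of other cell types were higher in the combined library. TRAC was the sole T cell marker of 5 in the table, with 11.6 to 12.2 FPKM in the other 3 libraries and 32.1 FPKM in the combined one. The 4 myeloid markers of 5 in the table summed to 27.0 to 31.2 FPKM and to 43.7 FPKM, nearly all of it MPO. LYZ measured 0.037 to 0.32 FPKM in the other 3 libraries and 1.39 FPKM in the combined one, CSF1R 0.43 to 0.63 and 1.25 FPKM, and CD14 0.039 to 0.17 and 0.047 FPKM. Erythroid markers, 3 of 5 in the table, summed to at most 0.49 FPKM, with HBB at 0 in all but the histidine library. Stromal and endothelial markers, also 3 of 5, summed to 0.90 to 1.11 FPKM and to 2.14 FPKM. The part of these shifts in the results was not tested.

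The promoter windows of the 4 kinases are shown first. The start regions carry different motifs, and a link between motifs and responses was not tested. Each window runs from 250 bases before to 50 bases after an annotated start, is taken from RefSeq on GRCh38.p14 and is written 5′ to 3′ on the gene's strand. Capitals mark matches, on either strand, to 6 motifs, namely the CCAAT box, the cell cycle homology regions TTTGAA and TTTAAA, the E2F-type TTCCCGC, the CRE-type TGACGT and the TATA-type TATATAA. No matches overlapped one another in these windows.
PLK1 (chr16:23678639-23678938, plus strand): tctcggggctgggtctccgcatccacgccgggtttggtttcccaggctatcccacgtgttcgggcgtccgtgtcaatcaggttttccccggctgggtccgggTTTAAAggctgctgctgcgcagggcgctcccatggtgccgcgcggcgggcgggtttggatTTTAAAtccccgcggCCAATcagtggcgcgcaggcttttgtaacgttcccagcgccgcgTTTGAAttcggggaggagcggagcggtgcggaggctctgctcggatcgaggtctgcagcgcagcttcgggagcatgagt
PLK2 (chr5:58460037-58460336, minus strand): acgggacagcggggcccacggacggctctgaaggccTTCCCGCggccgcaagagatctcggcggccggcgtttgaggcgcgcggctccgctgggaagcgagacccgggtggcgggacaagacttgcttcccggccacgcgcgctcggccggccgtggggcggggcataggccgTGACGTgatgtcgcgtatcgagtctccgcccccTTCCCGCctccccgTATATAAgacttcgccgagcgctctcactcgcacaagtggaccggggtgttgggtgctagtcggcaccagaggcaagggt
PLK3 (chr1:44800127-44800426, plus strand): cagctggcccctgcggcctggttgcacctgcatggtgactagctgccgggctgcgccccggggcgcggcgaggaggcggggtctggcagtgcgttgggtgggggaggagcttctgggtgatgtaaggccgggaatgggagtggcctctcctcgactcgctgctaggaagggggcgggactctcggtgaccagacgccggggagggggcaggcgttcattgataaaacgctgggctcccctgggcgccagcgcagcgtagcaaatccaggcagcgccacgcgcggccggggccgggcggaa
PLK4 (chr4:127880643-127880942, plus strand): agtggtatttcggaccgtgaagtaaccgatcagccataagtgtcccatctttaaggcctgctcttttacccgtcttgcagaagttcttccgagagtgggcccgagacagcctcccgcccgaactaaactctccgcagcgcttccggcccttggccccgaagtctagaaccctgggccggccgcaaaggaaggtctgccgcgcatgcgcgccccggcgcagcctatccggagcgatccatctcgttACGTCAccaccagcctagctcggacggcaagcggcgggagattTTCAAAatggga

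The PLK1 window combined a CCAAT box at position -73 (the first base of the match, with the start itself as 1) with a TTTGAA at -29 and TTTAAA at -148 and -88. Such CCAAT boxes and cell cycle homology regions are known from promoters of genes expressed late in the cell cycle. A CCAAT box alone was present in 34.6% of the 35116 RefSeq windows of the same length, TTTGAA in 15.2%, TTTAAA in 12.2%, and a CCAAT box with either homology region in 9.27%. The annotated start within the PLK1 window lay 1233 bases inside the gene as the expression table bounds it. The PLK2 window held TTCCCGC at -214 and -44, TGACGT at -77 and TATATAA at -30, motifs found in 6.55%, 7.98% and 2.57% of windows. The PLK3 window held none of the 6 motifs. PLK4 had 3 annotated windows, of which the first, shown above, held TGACGT at -5 and TTTGAA at 39, both on the reverse strand. Of its other windows 1 held a reverse CCAAT box at -86 and the other held none. A match describes letters in the window and is not evidence of a bound factor.

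PLK1 mRNA was lower in the combined library than in any other. PLK1 (ENSG00000166851, chr16:23677656-23690367, plus strand) measured 44.9 FPKM (43.4 to 46.6, 3063 reads) in vehicle, 45.4 FPKM (43.8 to 46.9, 3344 reads) with histidine, 42.0 FPKM (40.5 to 43.5, 3068 reads) with 6-MP and 9.63 FPKM (8.86 to 10.4, 591 reads) with both agents. The first 3 libraries lay close together and the interval of the combined library overlapped none of them. In a bulk library, fewer cells that express PLK1 and less PLK1 mRNA per cell cannot be told apart. The combined level was 4.67-fold lower than in vehicle (interval 4.27 to 5.11), a difference of -2.11 on the log2(FPKM + 1) scale. Against 6-MP alone it was 4.36-fold lower (4.00 to 4.77) with a difference of -2.02, and against histidine alone 4.71-fold lower (4.32 to 5.15) with a difference of -2.13. Only 7 of the 12750 genes had a more negative difference from vehicle, 10 from 6-MP and 14 from histidine. Of all genes 1.51% were lower against vehicle, 1.2% against 6-MP and 1.4% against histidine, and PLK1 was the single kinase of the 4 in that direction in each case. PLK1 thus moved from above 93.2% of the genes by FPKM level in vehicle to above 59.6% of them in the combined library.

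**Figure D1:**
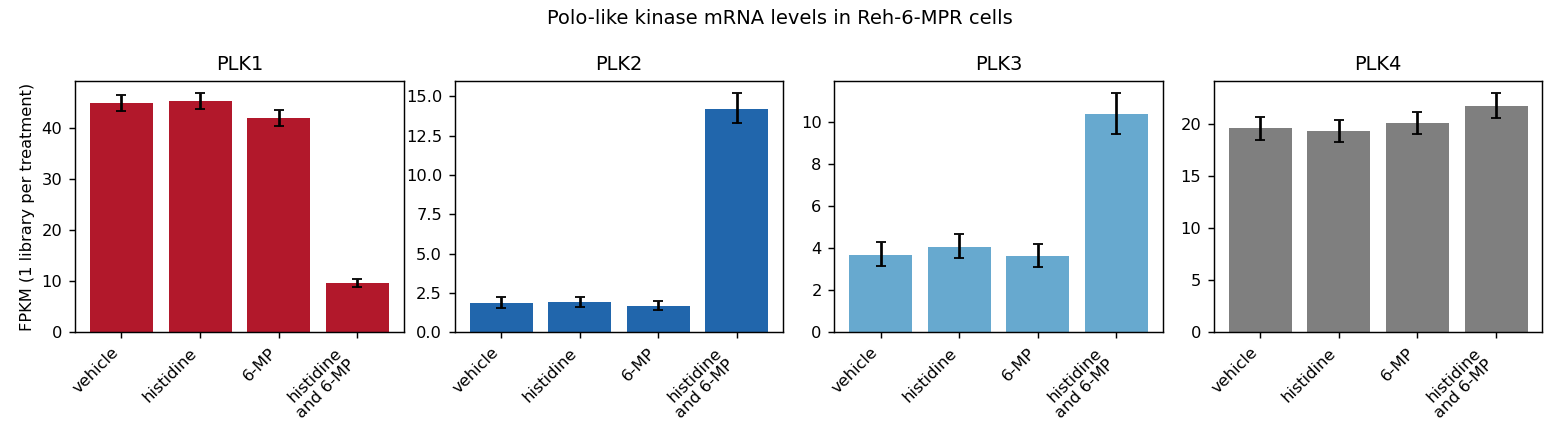
FPKM levels of PLK1, PLK2, PLK3 and PLK4 in the 4 libraries, 1 bar per library with its exact 95% counting interval; each panel has its own axis from 0. PLK1 dropped to 9.63 FPKM in the combined library, PLK2 and PLK3 were highest there at 14.2 and 10.4 FPKM, and PLK4 ranged from 19.3 to 21.7 FPKM.

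PLK2, a kinase linked to stress responses and, in neurons, to synaptic proteins, showed the opposite pattern. PLK2 (ENSG00000145632, chr5:58453982-58460139, minus strand) measured 1.89 FPKM (1.58 to 2.26, 126 reads) in vehicle, 1.92 FPKM (1.61 to 2.27, 138 reads) with histidine, 1.70 FPKM (1.41 to 2.03, 121 reads) with 6-MP and 14.2 FPKM (13.3 to 15.2, 853 reads) with both. It was a low transcript in the first 3 libraries, whose intervals overlapped, and the combined library was far above all of them. The ratio of the combined library to vehicle was 7.51 (6.23 to 9.13), with a log2(FPKM + 1) difference of 2.40. Its ratio to 6-MP alone was 8.38 (6.92 to 10.2), with a difference of 2.50, and its ratio to histidine alone was 7.42 (6.19 to 8.95), with a difference of 2.38. Of the 12750 genes, 20 had a larger difference from vehicle, 17 from 6-MP and 23 from histidine. PLK2 stood above 18.5% of the genes by FPKM level in vehicle and above 72.1% in the combined library.

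PLK3, a kinase implicated in stress and DNA damage signaling, was also highest in the combined library, with a smaller step. PLK3 (ENSG00000173846, chr1:44800377-44805990, plus strand) measured 3.70 FPKM (3.17 to 4.28, 176 reads) in vehicle, 4.08 FPKM (3.54 to 4.67, 210 reads) with histidine, 3.62 FPKM (3.12 to 4.19, 185 reads) with 6-MP and 10.4 FPKM (9.43 to 11.4, 445 reads) with both agents. The first 3 intervals overlapped and the fourth lay above them. Its combined level was 2.81-fold that of vehicle (2.35 to 3.36), a difference of 1.28 on the log2(FPKM + 1) scale. Against 6-MP the ratio was 2.86 (2.40 to 3.41) and the difference 1.30, and against histidine the ratio was 2.54 (2.15 to 3.01) and the difference 1.16. This last difference was the nearest to the threshold of those called among the kinases, and it came to 0.98, below the threshold, when libraries were scaled by median ratios over all genes above 0. PLK3 was less extreme among all genes than PLK2, with 343 genes showing a larger difference from vehicle, 290 from 6-MP and 357 from histidine. Of all genes 5.01% were higher against vehicle, 4.82% against 6-MP and 4.15% against histidine, and PLK2 and PLK3 were the 2 of 4 kinases higher in each case. Under median-ratio scaling 3.63% of genes were higher and 2.16% lower against vehicle, and PLK1, PLK2 and PLK3 were past the threshold there too.

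PLK4, the centriole duplication kinase, stayed near the median gene. PLK4 (ENSG00000142731, chr4:127880893-127899224, plus strand) measured 19.6 FPKM (18.5 to 20.7, 1255 reads) in vehicle, 19.3 FPKM (18.3 to 20.4, 1340 reads) with histidine, 20.1 FPKM (19.0 to 21.1, 1378 reads) with 6-MP and 21.7 FPKM (20.6 to 23.0, 1256 reads) with both. The combined library was the highest, its interval overlapped those of vehicle and 6-MP, and it lay just above that of histidine. The ratio of the combined library was 1.11 to vehicle (1.03 to 1.20), 1.08 to 6-MP (1.00 to 1.17) and 1.13 to histidine (1.04 to 1.22). The log2(FPKM + 1) difference from vehicle was 0.14 beside 0.13 for the median gene, and 51.1% of genes lay below it. Its sign depended on the scaling, because median-ratio scaling turned the difference from vehicle to -0.0046 and that from 6-MP to -0.030. With a largest difference of 0.16, PLK4 was the kinase outside the threshold in all 3 comparisons.

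**Figure D2:**
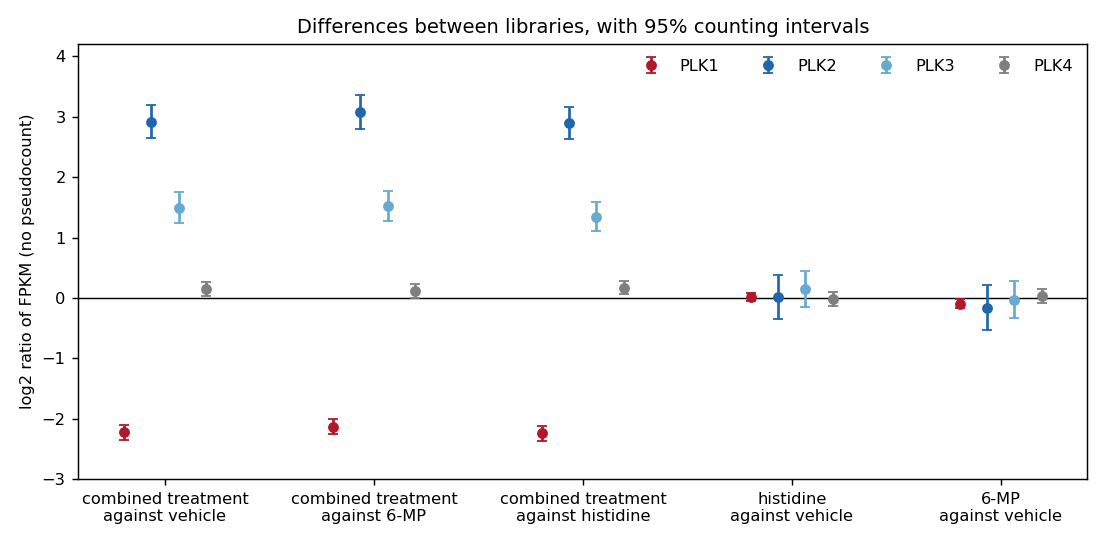
Log2 ratios of FPKM without a pseudocount for each kinase in the 5 comparisons, with exact 95% counting intervals. In the 3 comparisons of the combined library PLK2 and PLK3 lay above 0, PLK1 lay below 0 and PLK4 lay slightly above 0. Under median-ratio scaling, which is not drawn, the PLK4 difference of log2(FPKM + 1) from vehicle was -0.0046. In the comparisons of single agents with vehicle all 4 kinases lay near 0.

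Neither agent alone moved any of the 4 kinases past the threshold. Of all genes, 1.33% passed it in either direction when histidine alone was set against vehicle, and 1.18% when 6-MP alone was. PLK1 was 1.01 times its vehicle level with histidine (0.961 to 1.06) and 0.935 times with 6-MP (0.889 to 0.983), the latter being the one interval of 8 that left out 1. The corresponding ratios of PLK2 were 1.01 (0.789 to 1.30) and 0.896 (0.692 to 1.16). For PLK3 they were 1.10 (0.899 to 1.36) and 0.981 (0.794 to 1.21), and for PLK4 0.987 (0.913 to 1.07) and 1.02 (0.948 to 1.11). The intervals of PLK2 and PLK3 are wide because these genes had 121 to 210 reads in the libraries concerned, so small shifts of PLK2 and PLK3 were not detectable at this depth.

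The level with both agents was then set against the level that adding the 2 single differences on the log2(FPKM + 1) scale would give. For PLK1 the additive level was 42.4 FPKM and the measured level 9.63 FPKM, a departure of -2.03. PLK2 would have reached 1.72 FPKM and measured 14.2 FPKM, a departure of 2.49, and PLK3 would have reached 4.00 FPKM and measured 10.4 FPKM, a departure of 1.19. PLK4 departed by 0.13, from 19.8 to 21.7 FPKM, close to the 0.11 of the median gene. On the ratio scale without a pseudocount, the departure was given an approximate 95% counting interval, from a normal approximation on the reads of the 4 libraries. This interval ran from -2.28 to -1.99 for PLK1 and from 2.61 to 3.49 for PLK2. It ran from 0.99 to 1.76 for PLK3 and from -0.021 to 0.29 for PLK4. All 4 libraries enter each of these values, and a deviation of the combined library or of any other would move them together.

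The order of the kinases by level differed between libraries. In vehicle, histidine and 6-MP the FPKM order was PLK1, PLK4, PLK3 and PLK2, and each neighboring pair was separated beyond counting error. PLK1 was 2.30 times PLK4 in vehicle, 2.35 times with histidine and 2.09 times with 6-MP, and PLK2 was 0.513, 0.470 and 0.468 times PLK3. In the combined library PLK4 came first, followed by PLK2, PLK3 and PLK1. There PLK4 was 2.26 times PLK1 (2.05 to 2.49) and PLK2 was 1.37 times PLK3 (1.22 to 1.54). PLK3 and PLK1, the lowest pair, did not differ beyond counting error, with a ratio of 1.08 (0.950 to 1.22). PLK2 went from 0.0421 times the PLK1 level in vehicle to 1.48 times (1.33 to 1.64) in the combined library. These ratios within a library do not depend on how libraries are scaled to one another. They do depend on the gene lengths used for FPKM, and the lengths of the transcripts present were not tested.

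**Figure D3:**
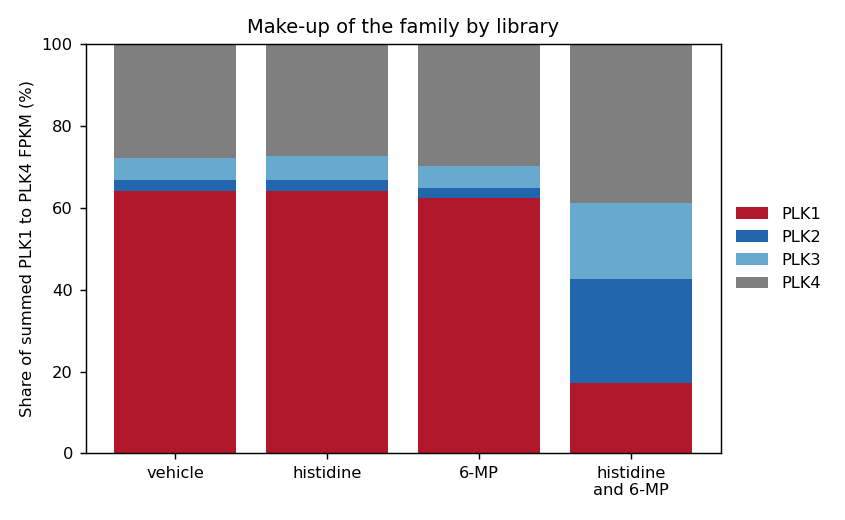
Share of the summed PLK1 to PLK4 FPKM held by each kinase in each library, in percent, which depends on the gene lengths used for FPKM. PLK1 held 62.3% to 64.2% in the first 3 libraries and 17.2% in the combined one, where PLK4 held 38.8%, PLK2 25.4% and PLK3 18.5%.

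The summed FPKM of the 4 kinases was 70.1 in vehicle, 70.7 with histidine, 67.4 with 6-MP and 56.0 with both agents. The sum therefore moved much less than its make-up. PLK2 accounted for 2.52% to 2.71% of it in the first 3 libraries and for 25.4% in the combined one. PLK3 went from 5.27% to 5.77% in those libraries to 18.5%, and PLK4 from 27.3% to 29.8% to 38.8%. Over the 3 comparisons of the combined library, 2.7% of genes were higher and 0.698% lower in every one, and PLK2 and PLK3 belonged to the former and PLK1 to the latter.

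Of 14 genes for PLK1 activation and mitotic entry, all measured, 3 fell past the threshold against vehicle, beside 1.51% of all genes, none rose and 11 were within it, with a median difference of -0.50 beside 0.13 over all genes. AURKA, the kinase that activates PLK1, measured 44.3, 43.5, 42.7 and 16.1 FPKM in vehicle, histidine, 6-MP and combined libraries, 2.75-fold lower than vehicle in the last (2.51 to 3.02). CCNB1, the mitotic cyclin B1, measured 103, 102, 105 and 41.5 FPKM and was 2.48-fold lower. AURKA and CCNB1 were lower in all 3 comparisons. BUB1, a checkpoint kinase with a PLK1 docking site, was named after its values were seen, and it had a difference of -1.06 from vehicle, -1.03 from 6-MP and -0.93 from histidine. BORA, the Aurora A cofactor, measured 7.51, 7.98, 6.93 and 4.69 FPKM, a difference of -0.58 from vehicle within the threshold. CDC25C, a phosphatase that PLK1 phosphorylates, did not follow PLK1, with 6.57, 5.43, 5.93 and 7.13 FPKM.

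Of 16 docking partners and substrates of PLK1, 15 were above the expression filter, 2 fell against vehicle, beside 1.51% of all genes, and none rose, with a median of -0.20 and a range from -2.12 to 0.51. CDC20, the activator of the anaphase-promoting complex, fell most, from 157 FPKM in vehicle, 148 with histidine and 144 with 6-MP to 35.3 FPKM with both, 4.44-fold lower than vehicle. KIF20A, the kinesin that brings PLK1 to the central spindle, measured 39.6, 41.8, 39.1 and 16.7 FPKM and was 2.37-fold lower than vehicle. CDC20 and KIF20A were both lower in all 3 comparisons. The remaining 13 genes stayed within the threshold against vehicle. The gene below the filter was PRC1, a central spindle protein, at 0.40 to 0.57 FPKM.

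For PLK4, 14 of 16 centriole duplication genes were above the filter and none passed the threshold in any comparison. Their median difference between the combined library and vehicle was 0.22 beside 0.13 over all genes, and 0.080 under median-ratio scaling. STIL, which binds and activates PLK4, measured 10.4, 9.81, 10.8 and 12.2 FPKM in vehicle, histidine, 6-MP and combined libraries. SASS6, the cartwheel protein, measured 9.21, 8.62, 8.93 and 11.0 FPKM. CEP152, the scaffold that recruits PLK4, measured 9.01, 8.75, 7.57 and 10.2 FPKM. Like PLK4, these partners differed from vehicle by little more than the median gene, with values of 0.21, 0.23 and 0.16. The 8 genes listed as substrates of PLK2 and PLK3 included 7 above the filter, and none of them passed the threshold, with a median of 0.14.

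Of the 7 lists, a list of p53 target genes, called genotoxic stress genes here, had the most genes past the threshold. They changed in the direction of PLK2 and PLK3. The listed genes act in cell cycle arrest, DNA repair and apoptosis. The name is a label only, and neither genotoxic stress nor p53 activity was tested. All 14 genes were measured, 11 rose against vehicle, beside 5.01% of all genes, none fell, and the median difference was 1.51. The same 11 genes were higher in all 3 comparisons, beside 2.7% of all genes. CDKN1A, the p21 inhibitor of cyclin-dependent kinases, measured 48.6, 42.8, 41.4 and 155 FPKM in vehicle, histidine, 6-MP and combined libraries. BTG2, an antiproliferative gene, measured 12.1, 10.6, 12.8 and 72.4 FPKM, with a difference of 2.48 from vehicle near the 2.40 of PLK2. TP53INP1 measured 2.74, 2.55, 3.14 and 18.9 FPKM, and FDXR, a mitochondrial reductase, measured 5.67, 5.74, 5.43 and 28.6 FPKM. The genes within the threshold against vehicle were MDM2, AEN and BAX, named after their values were seen, with differences of 0.16, 0.78 and 0.96. MDM2, which encodes a ubiquitin ligase, thus measured 37.1 FPKM in vehicle and 41.7 FPKM with both agents.

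Of 12 immediate early genes only 6 were above the filter, and 2 of these rose against vehicle, beside 5.01% of all genes. ATF3, a stress-induced transcription factor, measured 2.66, 3.24, 2.58 and 11.7 FPKM and was higher in all 3 comparisons. JUN, named after its values were seen, measured 1.89, 2.08, 1.80 and 4.98 FPKM, with differences of 1.05 from vehicle, 1.10 from 6-MP and 0.96 from histidine. EGR1 had 7, 7, 15 and 9 reads, too few to show a difference. FOS, also below the filter, had 0.50, 0.79, 0.78 and 1.41 FPKM. The median of the 6 genes was 0.14, close to that of all genes. Of 12 DREAM and MMB subunits, which control late cell cycle promoters, 11 were above the filter, none passed the threshold, and the median was -0.021. None of the 7 lists had a gene past the threshold in either comparison of a single agent with vehicle.

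**Figure D4:**
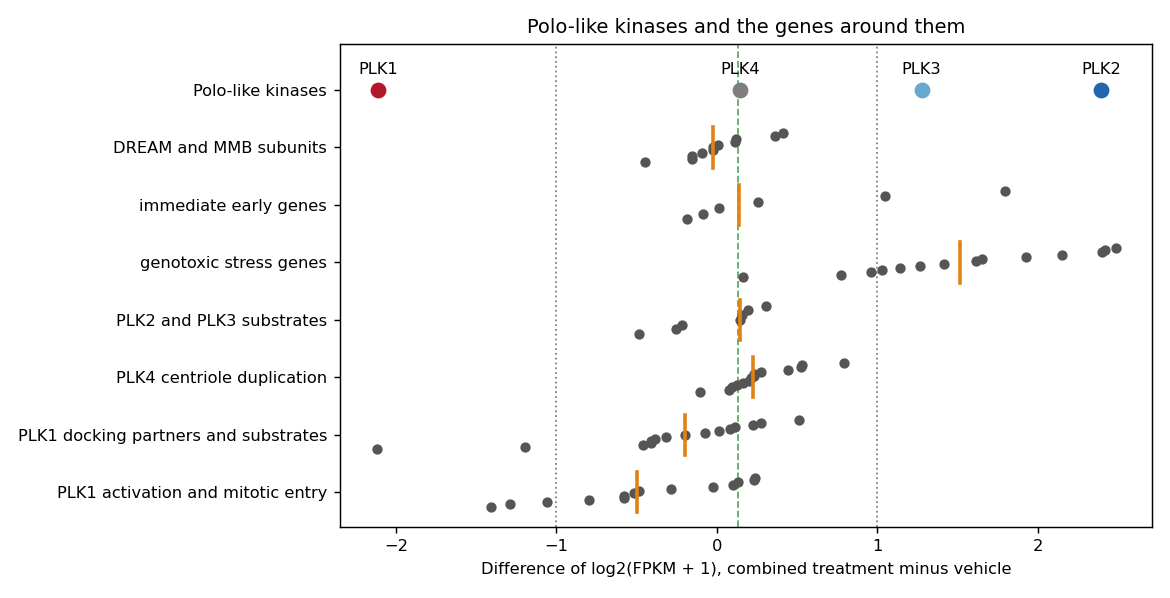
Differences of log2(FPKM + 1) between the combined library and vehicle, 1 point per gene, for the 4 kinases and 7 gene lists; orange bars are list medians, the dashed line is the median of all 12750 genes and dotted lines mark the threshold of 1. PLK1 lies at -2.11 and PLK2 at 2.40, and the genotoxic stress genes have the highest list median, 1.51; PLK4, at 0.14, falls to -0.0046 under median-ratio scaling.

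The protein-coding genes with profiles most like each kinase were found by the root mean square distance between centered log2(FPKM + 1) values over the 4 libraries, which are few points and share a depth and a composition. Nearest to PLK1 were CDC20 at 0.037, FRG2C at 0.089 and the transcription factor gene MYC at 0.11, which measured 70.4, 64.9, 65.0 and 17.7 FPKM. FRG2C belongs to a family of near-identical copies, so its reads are uncertain. Only 2 genes lay within 0.1 of PLK1, against 5 for PLK2, 85 for PLK3 and 3631 for PLK4. Among the nearest to PLK2 were RGS16 at 0.055 and ITGAM at 0.066. ITGAM, an integrin subunit of myeloid cells, measured 3.14, 3.16, 3.06 and 19.2 FPKM, whereas RGS16, a regulator of G protein signaling, was at 0.058 to 0.081 FPKM in the other 3 libraries and at 4.57 FPKM with both agents. RGS16 passed the expression filter through the combined library alone and its FPKM ratio is far larger than that of PLK2, so its small distance rests on the added 1 FPKM and shows no likeness in fold. Nearest to PLK3 were the synaptotagmin SYT11 at 0.021, the early-response gene IER5 at 0.021, with 8.75, 9.39, 8.32 and 21.7 FPKM, and ALOX5AP at 0.027. For PLK4 the nearest were CHD6, ZCCHC14 and SGSM2, at 0.0034 to 0.0066, in a crowded part of the distribution. Among the kinases, PLK1 and PLK2 were the farthest apart at 1.95, and PLK3 and PLK4 the nearest at 0.48, followed by PLK2 and PLK3 at 0.51.

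Overlapping genes had few reads beside those of the kinases. The antisense gene AC008870.3 at PLK1 had 0 to 2 reads per library, and TCTEX1D4, opposite PLK3, had 0 to 4. RNU6-583P, on the same strand as PLK4, had 13 to 19 reads against 1255 to 1378 of PLK4. ERN2, opposite PLK1, was not among the genes measured, so its reads are not known, and PLK2 had no overlapping gene in the annotation. The library kit marks strand, while the strand setting of the counting was not given in the sources used here.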

How the data were processed

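Messenger RNA of 4 cultures of Reh-6-MPR cells was sequenced, with 1 library for each treatment. The authors deposited FPKM values per gene with symbols and positions. Their processing notes name Trimmomatic, HISAT2, Cufflinks and HTSeq with the build GRCh38 (hg38), without roles or versions, and the strand setting of the counting is not given in the sources used here. The kinases, the gene lists and the named genes were chosen with earlier results of these data known. Groups were taken from the treatment labels.

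Reads were recovered from the deposited FPKM values as whole multiples of the value of 1 read, within a tolerance of 0.01, and this held in every library for 29831 of 29833 genes. In each library the recovered reads summed to slightly more than the total, with 1.436e+07 against 14316493 in vehicle. The recovered reads of some genes may thus be too high, and which genes these are was not tested. Differences of log2(FPKM + 1) were computed for genes whose mean over the 4 libraries reached 1 FPKM, and ratios of reads were given exact Clopper-Pearson intervals. With 1 library per treatment no count model was fitted and no p-value was computed. GENCODE 29 held 28905 of the identifiers and gave lengths and overlapping genes. Calculations used scipy 1.17.1, pandas 2.3.3 and numpy 2.4.6 under Python 3.11.15, with plots by matplotlib 3.10.9, and they were tested on simulated data. From each list, up to 3 genes in each direction were named that passed the threshold in all 3 comparisons of the combined library. Those with the largest smallest difference were taken. A fixed set was always named, namely AURKA, BORA, CDC25C, STIL, SASS6, CEP152, CDKN1A, BTG2, EGR1 and FOS. The 3 protein-coding genes nearest to each kinase in profile were added. Alternatives were another pseudocount, 2 median-ratio scalings, TPM scaling, other filters, another threshold and protein-coding genes alone. Motifs were searched on both strands of RefSeq promoter windows, and protein sequences were not used here. Some genes that the rules name are not reported here.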

Additional observations from a re-analysis of the deposited data

Results flagged for a closer look

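For each of the 4 kinases, 1 of the 2 agents had differences in opposite directions without and with the other agent as the FPKM values stand. For PLK1 and PLK4 this depended on the scaling. Each value rests on 4 libraries, 1 per treatment, and the difference between the 2 effects was not tested. For PLK1, histidine gave a log2(FPKM + 1) difference of 0.013 without 6-MP and -2.02 with it, so the effects differed by -2.03. Under median-ratio scaling the first of these was -0.011, and over all genes above 0 it was -0.026, the same direction as the second. The difference of PLK2 with 6-MP was -0.10 without histidine and 2.38 with it, a gap of 2.49. PLK3 had a 6-MP difference of -0.022 without histidine and 1.16 with it, a gap of 1.19. In PLK4 the histidine difference was -0.018 without 6-MP and 0.11 with it, a gap of 0.13 beside 0.11 for the median gene, and under median-ratio scaling the difference with 6-MP was -0.030 instead. For all 4 kinases the counting interval of the first ratio of each of these pairs included 1. The remaining agent kept the same direction in each kinase as the FPKM values stand. Without and with histidine, the 6-MP differences were -0.095 and -2.13 for PLK1 and 0.033 and 0.16 for PLK4. Without and with 6-MP, the histidine differences were 0.012 and 2.50 for PLK2 and 0.11 and 1.30 for PLK3.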

How the results depend on the processing

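Of 166 recomputed values, 140 stayed near the reported ones, 26 moved and none of the called values changed sign. A kinase value counted as near when its shift was smaller than the reach of its counting interval to either side. The low-count kinases PLK2 and PLK3 were thus allowed larger shifts than PLK1. List medians were judged by the typical interval of their genes. Numbers of kinases that went from 3 to 2 counted as near. Median-ratio scaling moved PLK1 to -2.26 against vehicle and -2.15 against 6-MP, and PLK4 to -0.0046, -0.030 and 0.036 against vehicle, 6-MP and histidine. It also moved the list medians to -0.64 for PLK1 activation, -0.35 for PLK1 partners, 0.080 for centriole duplication, 0.021 for PLK2 and PLK3 substrates and 1.37 for genotoxic stress genes. Median-ratio scaling over all genes above 0, an alternative chosen after seeing the data, gave -2.34, -2.23 and -2.31 for PLK1 with a departure from additivity of -2.21, and -0.088, -0.11 and -0.032 for PLK4 with a departure of -0.058. It also left PLK3 at 0.98 against histidine, below the threshold, although this value counted as near. A pseudocount of 0.1 gave 2.85, 2.995 and 2.83 for PLK2 with a departure of 2.98, and TPM scaling gave 2.79, 2.92 and 2.76. TPM scaling raised all values while the pseudocount stayed at 1, so it too lessened the weight of the pseudocount. The median of the PLK2 and PLK3 substrates was -0.013 when genes had to average 5 FPKM.

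The number of kinases past the threshold was 3 in each comparison of the combined library. It stayed at 3 over the 7 alternatives counted except with a threshold of 1.5, where PLK3 was lost, and with a required average of 5 FPKM, which PLK2 did not reach, both leaving 2. It was not counted for the scaling over all genes above 0, where the PLK3 value against histidine was below the threshold. Against vehicle, 639 genes were higher and 193 lower. These became 462 and 275 under median-ratio scaling, 1179 and 334 with a pseudocount of 0.1, 2446 and 660 by TPM, 949 and 296 without a filter, 215 and 88 among genes averaging 5 FPKM or more, 216 and 50 with a threshold of 1.5, and 346 and 76 among protein-coding genes. The genes compared also differed, with 12750 in the main setting, 12712 under median-ratio scaling, 17949 by TPM and 29833 without a filter. There were 7369 averaging 5 FPKM or more and 9997 protein-coding ones. Without a filter the share higher was thus 3.18%, beside 5.01% in the main setting. Median-ratio scaling gave 433 and 225 against 6-MP and 403 and 247 against histidine. Over the 7 alternatives counted, the counts of 614 and 153 against 6-MP ranged from 189 to 2276 and from 37 to 626, and those of 529 and 178 against histidine ranged from 174 to 2092 and from 50 to 727. The upper ends of these ranges came from TPM scaling. FPKM summed to only 242630 to 248756 per library, so TPM scaling raised every value while the pseudocount and the filter stayed at 1. Its counts thus mix the scaling with a lighter pseudocount and a looser filter.

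No paired analysis was possible because there was only 1 library of each treatment, which also leaves no replicate to omit. Depth limits the low kinases most, with 121 to 138 PLK2 reads outside the combined library. Library preparation and treatment cannot be told apart.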

Other observations

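PLK5, a family member that lacks a working kinase domain in humans, lay below the expression filter and was not among the 4 kinases described. PLK5 (ENSG00000185988) had 1 read in vehicle, 6 with histidine, 7 with 6-MP and 16 with both agents, or 0.018, 0.098, 0.11 and 0.31 FPKM. The ratio of the combined library to vehicle was 17.8 with a counting interval from 2.76 to 745, and to 6-MP it was 2.72 (1.06 to 7.81). Such low counts give no level that can be set beside those of PLK1 to PLK4.

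The motif combination of the PLK1 window was also counted over the 8201 protein-coding genes with a RefSeq window, 82.0% of those compared. Of 726 genes with a CCAAT box and either cell cycle homology region in 1 window, 1.93% were lower and 1.79% higher in the combined library than in vehicle. Of the 7475 genes without the combination, 0.602% were lower and 3.3% higher. These shares are given as a description, and most genes with the combination were within the threshold, with a median difference of 0.068.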
